A study of Danio rerio with 12 samples.

Results

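Whole zebrafish larvae exposed to 20 mg/L OBS were compared with untreated larvae by poly(A) RNA sequencing at 4 days post fertilisation. OBS, sodium p-perfluorous nonenoxybenzene sulfonate, is a fluorinated surfactant used in place of PFOS. The comparison set 3 libraries labelled 20 mg/L OBS (OBS20, replicates 1, 2 and 3) against 3 libraries of the untreated group (control, replicates 2, 3 and 4), and all of these larvae were wild type. The series also holds 3 libraries from larvae given 30 mg/L OBS (OBS30) and 3 from larvae given 20 mg/L PFOS (PFOS20), which were used to estimate the spread and, for single genes, as a second dose and a second compound. The expression values were TPM, a share of the transcripts in a library that takes gene length into account. A gene entered the comparison when it reached 1 TPM in at least 3 of the 6 OBS20 and control libraries. This took in 28115 of 44667 features, namely 19351 of 32520 Ensembl genes and 8764 of 12147 loci assembled from the reads. The labels do not say when exposure began, whether replicates were separate clutches, or how many larvae made up a sample. Each p-value therefore measures only the spread between these samples, which may be technical. The label of whole larvae was checked against 47 matched markers of 17 tissues, of which 46 were at 1 TPM or more in all 6 libraries.

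Larvae of this age live largely on yolk. Their liver and intestine are newly functional, make lipoproteins and plasma proteins, and take up and clear foreign chemicals. Clearance runs in stages: cytochrome P450 enzymes oxidise a compound, transferases attach glutathione, glucuronic acid or sulfate, and efflux pumps carry the product away. The transcription factor Nrf2, held down by its adaptor Keap1, switches on glutathione and peroxide-detoxifying genes, and the aryl hydrocarbon receptor switches on the CYP1 enzymes. Sterol synthesis is controlled by SREBP2, which turns on most enzymes of the pathway together.

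The libraries were alike in most respects except for 1. The median TPM over all features was 2.07 to 2.13 in control, 2.11 and 2.28 in OBS20 replicates 1 and 2, and 1.27 in OBS20 replicate 3. The number of features at 1 TPM or more was 23942 in OBS20 replicate 3 and 27589 to 27735 in control and OBS20 replicate 1. Ribosomal protein transcripts took 19.6% of the TPM in OBS20 replicate 3, against 15.6% to 17.8% in the other 5. Relative to the control mean, the median gene stood at -0.36 on the log2 scale in OBS20 replicate 3 and at 0.04 and 0.10 in OBS20 replicates 1 and 2. Within OBS20 replicate 3 this median was -0.25 in the shortest and -0.53 in the longest of 5 classes of feature length. Its part in the results was not tested beyond repeating the fits without this library.

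A gene was called higher or lower at a Benjamini-Hochberg adjusted p below 0.05 in limma, fitted on log2(TPM + 1). Differences are means of log2(TPM + 1) in OBS20 minus those in control, with the standard error of the fit, and this scale understates changes of genes near or below 1 TPM. OBS20 larvae had 217 genes and loci called higher (0.772% of those tested) and 263 called lower (0.935%), or 1.71% in both directions. All of the called features had OBS20 libraries that did not overlap the control libraries, as did 15.6% of all features tested. Of those called, 99 rose by at least 2-fold (0.352%) and 158 fell by at least 2-fold (0.562%). The median over all features tested was -0.09. Under quantile normalisation the split was 384 higher and 283 lower.

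Without OBS20 replicate 3 the counts were 340 higher and 234 lower, and 181 of the 217 and 208 of the 263 were called again. Leaving out control replicate 2, 3 or 4 gave 132, 124 or 122 higher and 129, 147 or 166 lower. Leaving out OBS20 replicate 1 gave 109 higher and 154 lower, and leaving out OBS20 replicate 2 gave 143 higher and 233 lower. Genes called in all 6 of these repeats numbered 86 among the higher and 106 among the lower. Unless a lost call is mentioned, the calls of the genes named below held in all 6.

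Among glutathione transferases, aryl hydrocarbon receptors and their targets, and skeletal muscle genes, the called members were all higher. Called members were all lower in several other groups. In the 5 with the most calls, these were 10 of 29 genes of cholesterol synthesis and uptake, 11 of 26 lipoprotein genes and 13 of 29 hepatocyte plasma protein genes. The same 5 held 10 of 47 complement and clotting genes and 8 of 38 enterocyte genes. Over all features, 0.935% were called lower. Photoreceptor genes (4 of 44) and lens crystallins (3 of 44) were also called only lower, and Nrf2 and Keap1 regulators (3 of 11) only higher. The remaining members did not pass the test. Under quantile normalisation 1 lipoprotein, 1 hepatocyte and 1 enterocyte gene were called higher, as was 1 hepatocyte gene when genes with a mean of at least 5 TPM were tested. In each of the 5 groups with the most lower calls the median was below 0 in OBS20 replicates 1 and 2. The median of all features there was 0.04 and 0.10. Photoreceptor medians were also below 0 in these 2 libraries, at -0.29 and -0.30. In OBS20 replicate 3 the median of all features was itself -0.36, and the 5 groups lay between -0.52 and -1.02. The neuronal genes, of which 0 were called, lay at -0.51 in that library. These are whole larvae, so fewer cells of a type and less RNA per cell cannot be told apart.

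**Figure D1:**
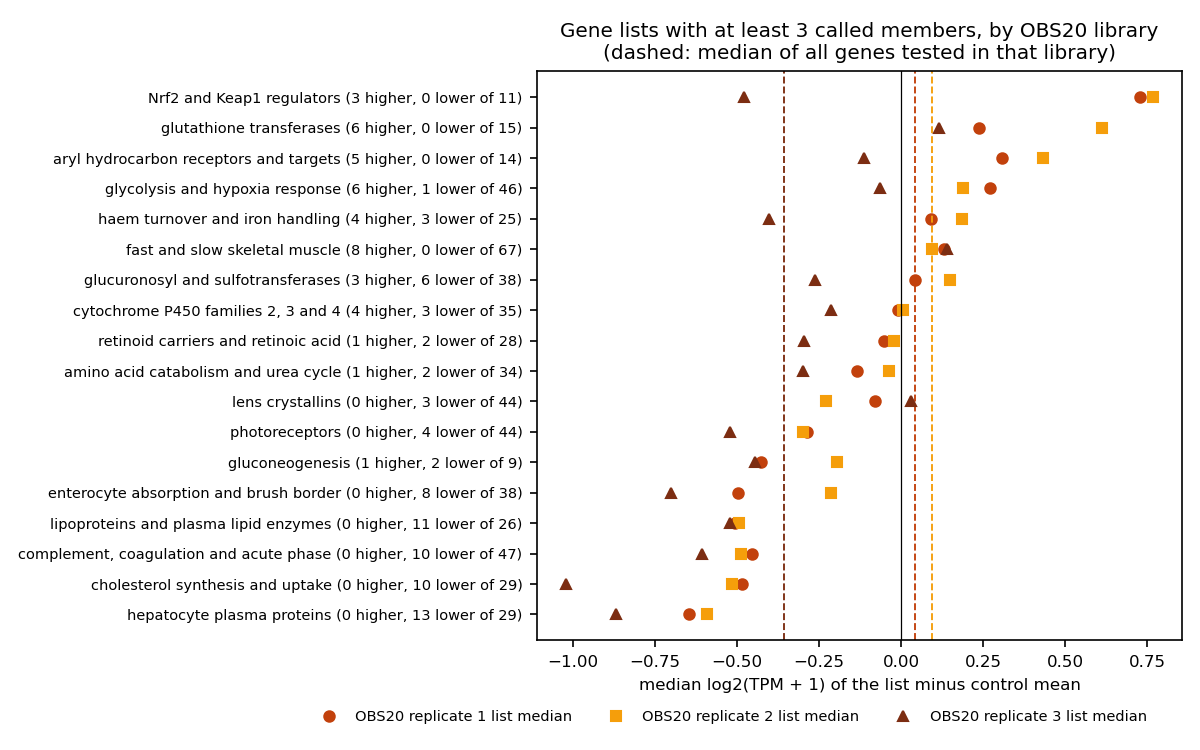
Median log2(TPM + 1) of each gene group in each OBS20 library minus the control mean (x axis), for groups with at least 3 called members, with the numbers called in the labels. Dashed lines mark the median of all features in that library, -0.36 in OBS20 replicate 3, and the hepatocyte and cholesterol groups lie left of that line in all 3 libraries while glutathione transferases lie right of it.

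Of 15 glutathione transferases tested, 6 rose and 0 fell, with a median of 0.32. In 7 of the 15 all OBS20 libraries lay above all controls, against 5.75% of all features, and in 3 they lay below, against 9.81%. The pi-class enzyme gstp1 was the most abundant of the 6 (ENSDARG identifiers of all genes are those of the deposited table). It stood at 533, 503 and 477 TPM in control and 1972, 1809.8 and 2101 TPM in OBS20. The lowest OBS20 library was 3.396-fold the highest control, and the difference was 1.96 ± 0.07 (adjusted p = 3e-07). Its neighbour in the family, gstp2, measured 44.9, 52.8 and 43.8 TPM in control and 144, 194 and 171 TPM in OBS20, a rise of 1.82 ± 0.18. The theta-class gstt1b gave 20.7, 16.1 and 20.4 TPM in control and 46.8, 64.9 and 76.6 TPM in OBS20, a rise of 1.65 ± 0.20. The other 3 that rose were the alpha-class gsta.2 (1.32 ± 0.21), the omega-class gsto2 (0.99 ± 0.11) and the rho-class gstr (0.56 ± 0.10). The call of gstr was lost without control replicate 3 or 4 or OBS20 replicate 2. Members of this family are similar in sequence, and how reads were divided among them is not given in the sources used here.

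Other parts of the glutathione and peroxide system moved in single genes. The peroxidase prdx1 was at 59.7, 46.6 and 52.5 TPM in control and 237, 202 and 206 TPM in OBS20. The lowest OBS20 value was 3.39-fold the highest control, for a rise of 2.00 ± 0.11 (adjusted p = 1.3e-05), and prdx1 was the 1 gene called among 17 of the peroxiredoxin and thioredoxin group, a count that was 2 without OBS20 replicate 3. A further entry with the symbol txn, a thioredoxin (ENSDARG00000044125), was not counted because a more abundant entry has the same symbol. It had 60.25, 78.2 and 60.1 TPM in control and 125, 143 and 194 TPM in OBS20, a rise of 1.19 ± 0.20 (adjusted p = 0.013) that was lost without control replicate 2 or 4, while the more abundant entry was not called (adjusted p = 0.95). Glutathione reductase, gsr, which regenerates glutathione, had 14.4, 16.1 and 13.9 TPM in control and 28.4, 33.3 and 31.3 TPM in OBS20 and rose by 1.02 ± 0.10. Of the 14 genes of glutathione synthesis and NADPH supply, 2 rose, gsr and taldo1 of the pentose phosphate pathway (0.45 ± 0.10), and 0 fell. The call of taldo1 was kept only without OBS20 replicate 3. The catalytic subunit of the first step of glutathione synthesis, gclc, had 19.8, 19.03 and 19.7 TPM in control and 29.5, 30.5 and 24.7 TPM in OBS20. Its groups did not overlap, but it missed the threshold at 0.51 ± 0.12 (adjusted p = 0.062) and passed it without OBS20 replicate 3 (0.59, adjusted p = 0.025). The modifier subunit gclm stood at 11.6, 8.07 and 10.4 TPM in control and 11.4, 12.3 and 10.98 TPM in OBS20, with overlapping groups (adjusted p = 0.75). Among 13 superoxide dismutases, catalase and glutathione peroxidases, 0 were called and the median was -0.04.

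Nrf2 itself and several of its classical targets were not called. Other genes of the glutathione and peroxide-detoxifying kind that Nrf2 switches on, gstp1, prdx1 and gsr, rose as given above. The Nrf2 gene nfe2l2a measured 31.9, 33.2 and 34.9 TPM in control and 45.5, 49.5 and 34.9 TPM in OBS20. The OBS20 replicate 3 value was within the control range and the adjusted p was 0.26. Without that library the difference was 0.50 (adjusted p = 0.025). The quinone reductase nqo1 had 55.1, 53.4 and 54.9 TPM in control and 66.8, 69.7 and 64.2 TPM in OBS20, a difference of 0.29 ± 0.10 that did not pass (adjusted p = 0.24). Haem oxygenase hmox1a (adjusted p = 0.74), sulfiredoxin srxn1 (0.73) and thioredoxin reductase txnrd3 (0.76) were likewise not called. Both Keap1 genes rose. The larger rise was in keap1a, at 7.02, 6.11 and 5.94 TPM in control and 14.1, 13.3 and 11.5 TPM in OBS20 and 0.92 ± 0.14 (adjusted p = 0.0062). The rise of keap1b was 0.72 ± 0.14, and that of bach1b, which encodes a repressor of haem-regulated and antioxidant genes, was 0.84 ± 0.18. These 3 were the called genes among 11 Nrf2 and Keap1 regulators, and in OBS20 replicate 3 the group's median was -0.48, against 0.73 and 0.77 in the others. The group's count was 5 without OBS20 replicate 3, and it was 1 when control replicate 2 or 4 or OBS20 replicate 1 or 2 was dropped. The keap1b call was lost without control replicate 2 or 4 or OBS20 replicate 1 or 2, and the bach1b call was kept only without OBS20 replicate 3.

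**Figure D2:**
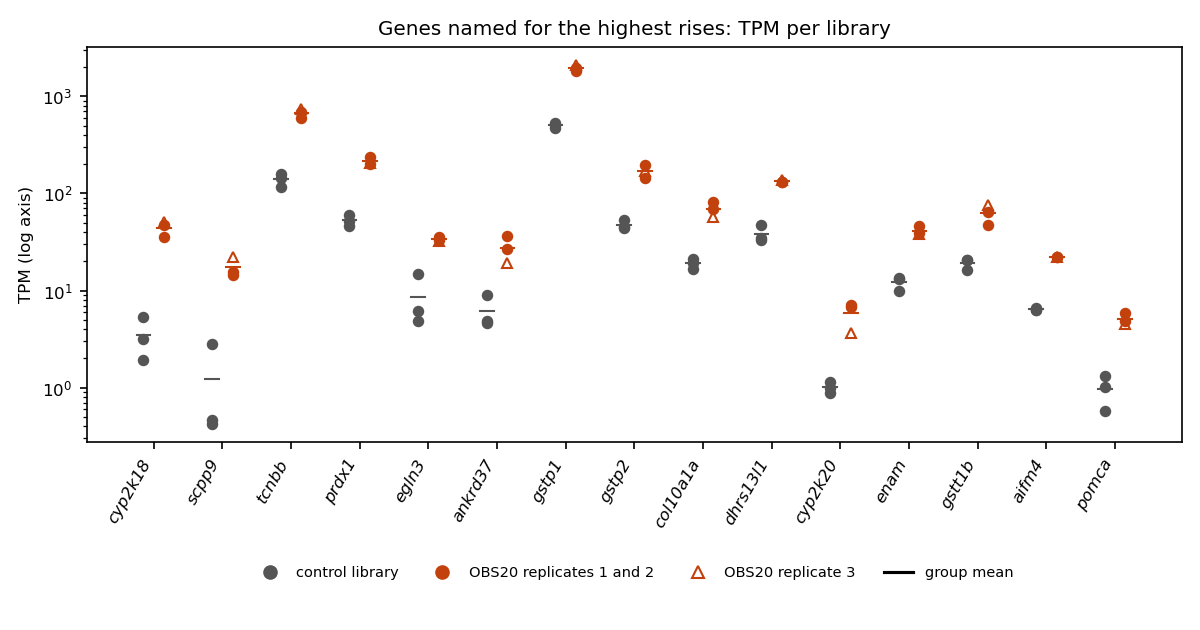
TPM per library on a log axis for the 15 genes named for the largest rises, with grey points for control, filled orange points for OBS20 replicates 1 and 2, an open triangle for OBS20 replicate 3 and short lines for group means. In all 15 genes the OBS20 points lie above the control points, and the highest levels are those of gstp1 and tcnbb.

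Of 14 aryl hydrocarbon receptors and targets tested, 5 rose and 0 fell, against 0.772% called higher and 0.935% called lower over all features. The median was 0.18, and in OBS20 replicate 3 it was -0.11. The receptor gene ahr2 had 13.7, 13.8 and 15.1 TPM in control and 16.9, 20.6 and 9.86 TPM in OBS20, with overlapping groups (adjusted p = 0.92). Its best known target, cyp1a, an oxidising enzyme, stood at 54.2, 41.3 and 37.4 TPM in control and 122, 133 and 100.04 TPM in OBS20. The lowest OBS20 value was above the highest control value, and the rise was 1.404 ± 0.15 (adjusted p = 0.00089). A second CYP1 enzyme gene, cyp1c1, measured 8.78, 7.12 and 7.84 TPM in control and 21.1, 22.4 and 15.9 TPM in OBS20, a rise of 1.21 ± 0.16. The related cyp1c2 rose by 1.08 ± 0.18, a call lost without control replicate 3 or 4 or OBS20 replicate 1. The gene tiparp, whose product dampens the receptor, rose by 0.99 ± 0.18, a call lost without control replicate 2 or 4 or OBS20 replicate 1. The forkhead gene foxq1b was at 6.62, 7.65 and 6.72 TPM in control and 14.9, 14.8 and 13.2 TPM in OBS20 and rose by 0.93 ± 0.12. Dropping OBS20 replicate 1 or control replicate 4 lowered the count to 3.

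Other oxidising enzymes moved in both directions. Among 35 cytochromes P450 of families 2, 3 and 4, 4 rose and 3 fell. The shares over all features were 0.772% called higher and 0.935% called lower. The largest rise of any named gene was that of cyp2k18, at 5.37, 3.14 and 1.93 TPM in control and 46.9, 35.7 and 51.03 TPM in OBS20. The lowest OBS20 value was 6.65-fold the highest control, and the difference was 3.40 ± 0.27 (adjusted p = 0.00014). A second family 2 gene, cyp2y3, had 41.6, 34.1 and 30.4 TPM in control and 103, 111 and 103 TPM in OBS20, a rise of 1.57 ± 0.14. The intestinal and hepatic enzyme gene cyp3a65 rose by 1.14 ± 0.18, and cyp2k20 by 1.72 ± 0.34, the latter call being kept only without OBS20 replicate 3. Against these, cyp2ad2 fell from 38.95, 28.5 and 28.1 TPM in control to 7.34, 6.09 and 6.02 TPM in OBS20. Its difference was -2.12 ± 0.15 (adjusted p = 8.3e-05). The fatty acid hydroxylase genes cyp4v8 (-1.22 ± 0.18) and cyp4t8 (-0.68 ± 0.14) fell as well, the call of cyp4t8 being kept only without OBS20 replicate 3.

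Conjugating enzymes also divided. Of 38 glucuronosyl- and sulfotransferases, 3 rose and 6 fell, against 0.772% called higher and 0.935% called lower over all features. The 6 that fell were all sulfotransferases. The glucuronosyltransferase ugt2b5 had 15.5, 12.7 and 14.5 TPM in control and 37.5, 52.4 and 31.6 TPM in OBS20, a rise of 1.42 ± 0.20. The other 2 that rose were ugt2a1 (0.97 ± 0.18), whose call was lost without control replicate 3 or 4 or OBS20 replicate 2, and the sulfotransferase sult6b1 (0.84 ± 0.09). Among those that fell, sult1st3 measured 19.8, 11.8 and 13.1 TPM in control and 3.52, 3.86 and 3.54 TPM in OBS20, a change of -1.74 ± 0.22. The lowest control value of sult1st3 was 3.04-fold the highest OBS20 value. Falls of sult1st6 (-1.26 ± 0.18) and sult2st2 (-0.89 ± 0.11) held in all 6 repeats. Those of sult3st2 (-1.67 ± 0.27) and sult1st2 (-1.68 ± 0.28) were lost without control replicate 2, and that of sult3st3 (-1.93 ± 0.37) was lost without control replicate 3 or 4 or OBS20 replicate 1 or 3. Among 19 drug transporters and xenobiotic receptors, the efflux pump for conjugates abcc2 rose, with 20.3, 18.7 and 14.9 TPM in control and 40.8, 42.3 and 34.2 TPM in OBS20 and a difference of 1.09 ± 0.14. The pump gene abcg2a was the 1 that fell (-0.74 ± 0.14), a call lost without control replicate 2 or 3 or OBS20 replicate 1 or 3.

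Of 25 genes of haem turnover and iron handling, 4 rose, 3 fell and 18 were not called. The shares over all features were 0.772% called higher and 0.935% called lower. Among those that rose were 3 ferritin genes, whose products store iron. The ferritin heavy chain gene fthl27 had 242, 254 and 232 TPM in control and 524, 557 and 607 TPM in OBS20, a rise of 1.21 ± 0.09 (adjusted p = 9.3e-05). A second ferritin gene, fthl31, rose by 1.12 ± 0.14, and another, fthl29, by 1.12 ± 0.21, a call lost without control replicate 2, 3 or 4 or OBS20 replicate 1. The first enzyme of haem synthesis in liver, alas1, rose by 0.62 ± 0.12, a call lost without control replicate 4 or OBS20 replicate 1 or 2. Transferrin, tfa, the iron carrier of plasma, stood at 555, 526 and 479.6 TPM in control and 349.5, 344 and 327 TPM in OBS20. The groups were well apart and the difference was -0.61 ± 0.08 (adjusted p = 0.003). Haptoglobin, hp, which binds free haemoglobin, fell by 1.12 ± 0.17 on the log2 scale, and the ferroxidase ceruloplasmin, cp, by 1.06 ± 0.18, a call lost without control replicate 3 or 4 or OBS20 replicate 2. After median-of-ratios scaling 2 of these genes were called higher and 0 lower. Without OBS20 replicate 1 or control replicate 4 the number called higher was 2.

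Of 29 genes of cholesterol synthesis and uptake, 10 fell and 0 rose, with a median of -0.78. In 22 of the 29 all OBS20 libraries lay below all controls, against 9.81% of all features, and 26 of the 29 differences were negative. The 10 that fell were enzymes, from the start of the pathway (hmgcs1, -1.04 ± 0.18) through fdps (-0.79 ± 0.13) and sqlea (-1.12 ± 0.19) to its last steps. The cyclase that forms the first sterol, lss, had 3.85, 3.65 and 3.94 TPM in control and 1.18, 1.18 and 0.97 TPM in OBS20. Its change of -1.19 ± 0.18 missed the threshold with a pseudocount of 0.1. The demethylase cyp51, which acts next, stood at 34.9, 27.9 and 28.4 TPM in control and 11.4, 12.2 and 9.37 TPM in OBS20. The lowest control value was 2.29-fold the highest OBS20 value, a change of -1.39 ± 0.16 (adjusted p = 0.0012). The next demethylation enzyme, msmo1, was at 42.9, 36.1 and 40.2 TPM in control and 13.3, 13.7 and 11.3 TPM in OBS20, the deepest fall of the group at -1.56 ± 0.18. The dehydrogenase nsdhl, of the same complex, measured 15.4, 15.5 and 13.9 TPM in control and 6.98, 7.48 and 6.81 TPM in OBS20, a change of -0.98 ± 0.12. Of the late enzymes, sc5d (-1.33 ± 0.23), ebp (-0.97 ± 0.19) and hsd17b7 (-0.80 ± 0.15) fell too.

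The rate-limiting enzyme hmgcra was not called. It had 7.32, 5.84 and 7.67 TPM in control and 4.8, 4.1 and 2.29 TPM in OBS20; the groups did not overlap and the difference was -0.78 ± 0.21 (adjusted p = 0.11). The LDL receptor gene ldlra measured 11.7, 11.6 and 12.7 TPM in control and 10.7, 12.1 and 5.46 TPM in OBS20, with overlapping groups and an adjusted p of 0.65. Without OBS20 replicate 3 the group's median was -0.54 and 9 members fell. Dropping control replicate 2 or 3 lowered the count to 5 or 6, and 4 genes (lss, cyp51, msmo1 and nsdhl) were called in all 6 repeats. The call of ebp was lost without any 1 of the 6 libraries. The calls of fdps, sqlea, sc5d, hmgcs1 and hsd17b7 were lost in 1, 2, 2, 3 and 4 of the 6 repeats.

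**Figure D3:**
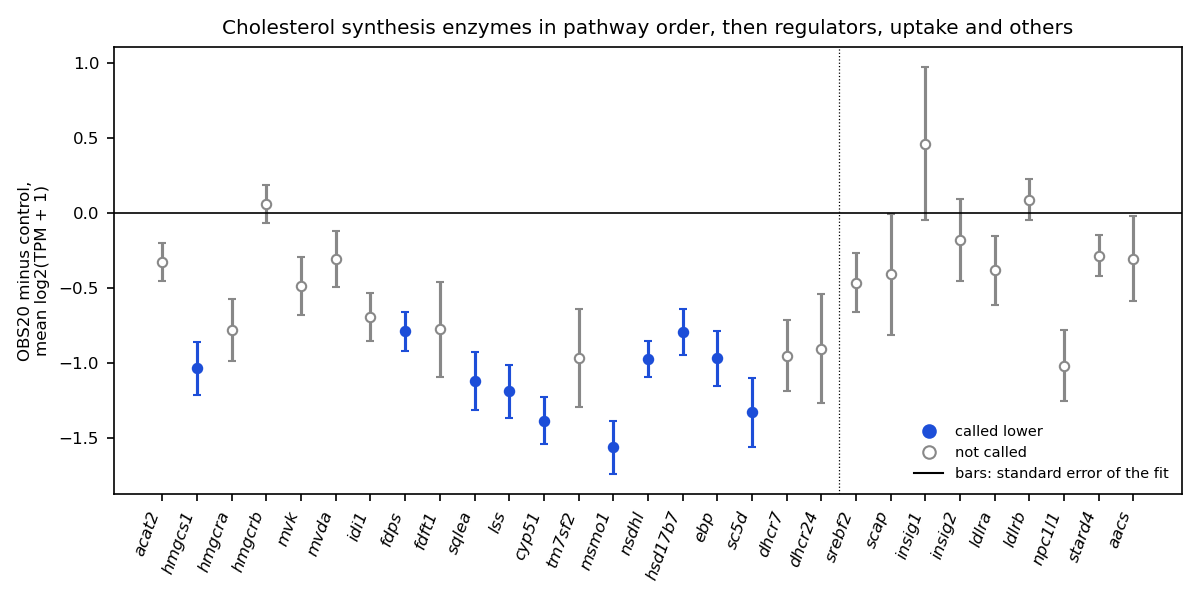
Difference between OBS20 and control in mean log2(TPM + 1), bars being standard errors from limma, for the 29 genes of cholesterol synthesis and uptake, enzymes in pathway order to the left of the dotted line. The 10 filled points are called lower, from -0.79 for fdps to -1.56 for msmo1, and the 3 points above 0 are hmgcrb, insig1 and ldlrb.

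Most genes of fatty acid synthesis and oxidation did not pass the test. Of 25 genes of fatty acid and triglyceride synthesis, 2 fell and 0 rose, against 0.935% of all features called lower. The group's median was -0.37, and 23 of the 25 differences were negative. All OBS20 libraries lay below all controls in 10 of the 25, against 9.81% of all features, and above them in 0, against 5.75%. The desaturase fads2, which makes long polyunsaturated fatty acids, had 25.9, 20.1 and 20.6 TPM in control and 5.66, 7.42 and 4.8 TPM in OBS20, a change of -1.74 ± 0.18 (adjusted p = 0.00062). The elongase elovl2, its partner in that route, measured 13.1, 8.26 and 10.6 TPM in control and 2.82, 3.2 and 2.04 TPM in OBS20, a change of -1.65 ± 0.19. Fatty acid synthase, fasn, was at 7.29, 9.84 and 8.2 TPM in control and 9.86, 8.4 and 2.36 TPM in OBS20, where OBS20 replicate 3 alone was low (adjusted p = 0.79). Among 45 genes of fatty acid oxidation and PPAR targets, 2 fell and 0 rose, with a median of -0.07. All OBS20 libraries lay below all controls in 6 of the 45 and above them in 3, against the same shares over all features. The 2 that fell were the peroxisomal enzyme ehhadh, at 8.9, 7.78 and 8.21 TPM in control and 3.6, 3.39 and 4.16 TPM in OBS20 (-0.98 ± 0.15), and the mitochondrial carrier ucp1. The latter stood at 151, 102 and 122 TPM in control and 56.4, 61.2 and 49.8 TPM in OBS20, a fall of 1.14 ± 0.15 on the log2 scale. The rate-setting gene of mitochondrial oxidation, cpt1aa, was not called (adjusted p = 0.77).

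Of 26 genes of lipoproteins and plasma lipid enzymes, 11 fell and 0 rose, with a median of -0.52. Apolipoprotein M, apom, had 170.5, 154 and 139.6 TPM in control and 65.04, 72.7 and 65.3 TPM in OBS20. The lowest control value was 1.92-fold the highest OBS20 value, a change of -1.18 ± 0.11 (adjusted p = 0.00045). The abundant apoa2 was at 3764, 3459 and 3107 TPM in control and 2056, 2102 and 2023 TPM in OBS20, a change of -0.74 ± 0.08. Apolipoprotein B, the structural protein of yolk- and gut-derived particles, has several genes, of which apobb.1 gave 96, 58.9 and 62.05 TPM in control and 27.6, 39.3 and 28.04 TPM in OBS20 (-1.15 ± 0.18) and apoba fell by 1.21 ± 0.18. The apolipoprotein A-IV gene apoa4b.1 fell from 806, 509.9 and 561 TPM to 246, 339 and 231 TPM (-1.19 ± 0.18). Hepatic lipase, lipca, was low throughout, at 2, 2.62 and 1.73 TPM in control and 0.38, 0.54 and 0.17 TPM in OBS20, with a difference of -1.19 ± 0.18. The low gene apoc4 had 3.41, 4.58 and 2.2 TPM in control and 0, 0.5 and 0 TPM in OBS20, a difference of -1.90 ± 0.27 that missed the threshold with a pseudocount of 0.1. All OBS20 values of lipca and apoc4 were below 1 TPM, so both passed the filter through control alone. The call of apoa4b.1 and of 7 others held in all 6 repeats. In 15 of the 26 all OBS20 libraries lay below all controls, against 9.81% of all features. In 3 they lay above, against 5.75%. After median-of-ratios scaling 6 members fell and 1 rose, and without OBS20 replicate 3 the numbers were 10 and 1.

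The group of hepatocyte plasma protein genes held the most calls. Not all of its members encode plasma proteins, since it holds uox of purine breakdown. The fall of uox (-0.81 ± 0.18) was lost without any 1 of the 6 libraries. Groups can share genes, and ttr was counted among the thyroid genes as well. Of 29 hepatocyte plasma protein genes, 13 fell and 0 rose, with a median of -0.72, against 0.935% of all features called lower. The deepest fall of any named gene was that of ahsg2, encoding a fetuin, a plasma protein that binds calcium phosphate. It stood at 16.9, 12.2 and 10.9 TPM in control and 0.37, 0.11 and 0.33 TPM in OBS20. The lowest control value was 29.4-fold the highest OBS20 value, a difference of -3.48 ± 0.18 (adjusted p = 8.3e-06). All OBS20 values of ahsg2 were below 1 TPM, so it passed the filter through control alone and that ratio rests on values near the floor. A second fetuin, fetub, measured 215, 182 and 161 TPM in control and 65.2, 62.4 and 55.5 TPM in OBS20, a change of -1.59 ± 0.11, and another, ahsg1, fell by 1.57 ± 0.19 on the log2 scale. The antitrypsin-like inhibitor serpina1l was at 612, 523 and 486 TPM in control and 246, 247 and 212 TPM in OBS20, a change of -1.19 ± 0.11. Transthyretin, ttr, a carrier of thyroid hormone, had 44.97, 50.8 and 50.6 TPM in control and 20.4, 24.5 and 21.4 TPM in OBS20, a change of -1.11 ± 0.13. The carboxylesterase ces3 fell from 17.8, 8.13 and 10.9 TPM to 2.28, 2.53 and 2.89 TPM (-1.83 ± 0.27).

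The liver was not lower for every gene. The hepatocyte fatty acid binding protein fabp10a, a standard liver marker, had 1531, 1499.6 and 1233 TPM in control and 1280.0, 1301 and 1367 TPM in OBS20. Its groups overlapped and the difference was -0.11 ± 0.14 (adjusted p = 0.85). Likewise pck1, of glucose synthesis, measured 318, 254 and 222 TPM in control and 221, 248 and 213 TPM in OBS20 (adjusted p = 0.73). After median-of-ratios scaling 8 of the hepatocyte group fell. Leaving out any 1 library left 10 to 13.

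**Figure D4:**
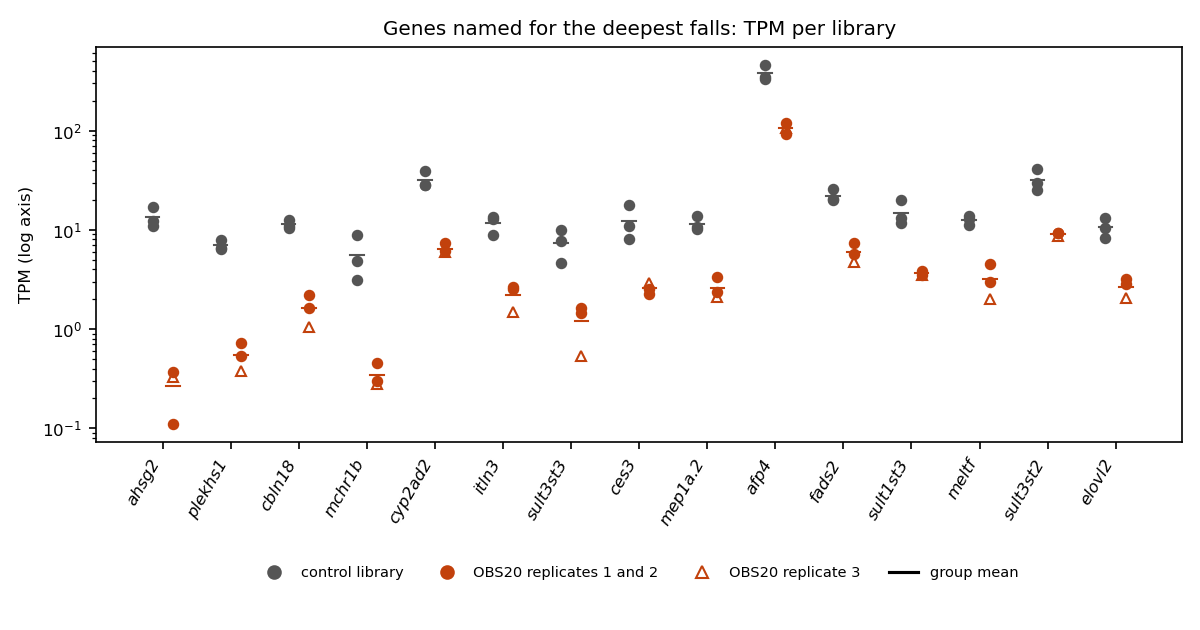
TPM per library on a log axis for the 15 genes named for the deepest falls, with grey points for control, filled orange points for OBS20 replicates 1 and 2, an open triangle for OBS20 replicate 3 and short lines for group means. In all 15 genes the OBS20 points lie below the control points, with the widest gap for ahsg2, whose OBS20 values are all below 1 TPM.

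Complement and clotting factors are made largely in the liver and secreted into plasma. Of 47 genes of complement, coagulation and the acute phase, 10 fell and 0 rose, with a median of -0.49. In 26 of them all OBS20 libraries lay below all controls, against 9.81% of all features. In 1 they lay above, against 5.75%. The terminal complement component c9 had 59.8, 65 and 56.02 TPM in control and 31.1, 27.4 and 28.7 TPM in OBS20, a change of -1.03 ± 0.13 (adjusted p = 0.0028). Prothrombin, f2, was at 30.2, 30.2 and 26.9 TPM in control and 15.5, 16.9 and 17.8 TPM in OBS20, a change of -0.77 ± 0.11. These were the 2 genes of the group called in all 6 repeats. The other 8 ranged from mbl2, a lectin that starts complement (-1.22 ± 0.26), to c5 (-0.69 ± 0.15), and included its protease masp2 (-1.05 ± 0.18) and c3a.1 of the central component C3 (-0.92 ± 0.16). Dropping control replicate 2 lowered the count to 2, dropping control replicate 3 or OBS20 replicate 1 lowered it to 3, and the other 3 repeats gave 7 to 9.

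Of 38 genes of enterocyte absorption and the brush border, 8 fell and 0 rose, against 0.935% of all features called lower. The group's median was -0.46. The meprin subunits, proteases of the brush border, fell together, with mep1a.2 at 13.8, 10.6 and 10.27 TPM in control and 2.35, 3.34 and 2.09 TPM in OBS20 (-1.81 ± 0.20) and mep1b at a difference of -1.53 ± 0.22. The retinol-binding protein of enterocytes, rbp2a, measured 662, 546 and 530.2 TPM in control and 172, 238 and 223 TPM in OBS20. The lowest control value was 2.22-fold the highest OBS20 value, and the change was -1.46 ± 0.15 (adjusted p = 0.00085). The peptide transporter slc15a1a had 6.03, 4.43 and 4.47 TPM in control and 1.36, 1.39 and 1.04 TPM in OBS20, a change of -1.39 ± 0.19, and the dicarboxylate transporter slc13a2 fell by 1.27 ± 0.14 on the log2 scale. The amino acid transporter slc6a19b (-1.35 ± 0.22) also fell, a call lost without control replicate 2 or 4 or OBS20 replicate 1. Dropping OBS20 replicate 1, control replicate 2 or control replicate 4 lowered the count to 5, and dropping OBS20 replicate 3 lowered it to 6. Of the mucosal group of 8 genes, the lectin itln3 alone was called, at 13.4, 12.8 and 8.88 TPM in control and 2.52, 2.67 and 1.5 TPM in OBS20 (-1.98 ± 0.21).

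Pancreas genes held 1 call. Of 21 exocrine genes, 1 fell and 0 rose, against 0.935% called lower and 0.772% called higher over all features. All OBS20 libraries lay below all controls in 5 of the 21, against 9.81% of all features, and above them in 0, against 5.75%. The 1 that fell was sycn.1 (-1.06 ± 0.23), a call lost without any 1 of the 6 libraries. The trypsinogen prss1 had 745, 595 and 519 TPM in control and 574, 552 and 875 TPM in OBS20, with overlapping groups (adjusted p = 0.89). Of 16 endocrine genes, 0 were called, and with 1.71% called over all features this count does not set the group apart. Insulin, ins, measured 38.5, 29.2 and 25.9 TPM in control and 23.6, 13.9 and 26.8 TPM in OBS20, with overlapping groups (adjusted p = 0.51). Whether the pancreas and intestine differ in response was not tested.

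Energy genes moved in both directions. Among 46 genes of glycolysis and the hypoxia response, 6 rose and 1 fell, against 0.772% called higher and 0.935% called lower over all features. The muscle forms aldoaa, an aldolase, and pgam2, a mutase, rose, with aldoaa at 419, 441 and 439 TPM in control and 725, 710.1 and 640.5 TPM in OBS20 (0.67 ± 0.06, adjusted p = 0.00028) and pgam2 at a rise of 0.87 ± 0.09. The kinase pfkma rose by 0.72 ± 0.12, a call lost without control replicate 2 or OBS20 replicate 1. The hypoxia-inducible hydroxylase gene egln3, whose product marks HIF for degradation, was at 14.96, 4.82 and 6.12 TPM in control and 33.2, 35.9 and 32.6 TPM in OBS20. The controls spread more than the OBS20 libraries, and the rise of 2.00 ± 0.33 was not called without control replicate 4. Another hypoxia-inducible gene, ankrd37, rose by 1.99 ± 0.36, a call lost without control replicate 3 or 4 or OBS20 replicate 1 or 2. The liver form of pyruvate kinase, pklr, fell from 84.3, 71.7 and 55.3 TPM to 25.4, 27.2 and 34.99 TPM (-1.24 ± 0.17). The count of rises was 10 without OBS20 replicate 3 and 3 without OBS20 replicate 1. Of 9 gluconeogenic genes, 1 rose and 2 fell, against the same shares over all features. All OBS20 libraries lay below all controls in 5 of the 9, against 9.81% of all features, and above them in 2, against 5.75%. The liver bisphosphatase fbp1b fell, at 157, 137 and 137 TPM in control and 72.4, 74.3 and 67.9 TPM in OBS20 (-0.99 ± 0.11), and its muscle form fbp2 rose by 0.87 ± 0.14, a call lost without control replicate 2 or 4. The fall of pck2 (-1.02 ± 0.21) was lost without any 1 of the 6 libraries. Of 34 genes of amino acid catabolism and the urea cycle, 1 rose and 2 fell, against 0.772% called higher and 0.935% called lower over all features. The 1 that rose was fah of tyrosine breakdown (0.67 ± 0.10). The fall of agxta (-0.98 ± 0.14) held in all 6 repeats, and that of sdsl (-1.45 ± 0.26) was lost without control replicate 2 or 3 or OBS20 replicate 1. All OBS20 libraries lay below all controls in 12 of the 34 and above them in 6.

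Of 67 genes of fast and slow skeletal muscle, 8 rose and 0 fell, with a median of 0.13. The shares over all features were 0.772% called higher and 0.935% called lower. In 24 of the 67 all OBS20 libraries lay above all controls, against 5.75% of all features, and in 3 they lay below, against 9.81%. The calcium buffer pvalb3 had 29.7, 25.9 and 24.1 TPM in control and 53.8, 46.3 and 58.6 TPM in OBS20, a rise of 0.97 ± 0.14, and with pgam2 it was called in all 6 repeats. The other 6 rose by at most 0.45, among them tnnt3a of the troponin complex at 373, 395 and 371 TPM in control and 475, 472 and 502 TPM in OBS20 (0.35 ± 0.06) and the slow myosin smyhc3 (0.45 ± 0.08). Dropping control replicate 2 or 4 lowered the count to 2, and it was 3 when control replicate 3, OBS20 replicate 1 or OBS20 replicate 2 was dropped and 3 after median-of-ratios scaling. Of 44 lens crystallins, 3 fell and 0 rose, against 0.935% of all features called lower. The chaperone crystallin cryaa was at 46.4, 46.8 and 48.2 TPM in control and 31.3, 25.7 and 26.4 TPM in OBS20, a fall of 0.75 ± 0.11 on the log2 scale. The other lens genes that fell were crygm5 (-1.02 ± 0.16), a call lost without control replicate 2, and crygmxl1 (-1.11 ± 0.22), a call kept only without control replicate 3. Among 44 photoreceptor genes tested, the calls were 4 lower and 0 higher, against 0.935% of all features called lower. The median was -0.37, and 42 differences were negative. The 4 called were pde6ha and pde6ga, subunits of the phosphodiesterase of phototransduction, the opsin kinase grk7a, and rhol. The abundant pde6ha measured 3015, 3192 and 3290.1 TPM in control and 1929, 1924 and 2388 TPM in OBS20, with a difference of -0.61 ± 0.12. None of these 4 calls held in all 6 repeats, and the count fell to 0 on dropping control replicate 2 or 4, to 1 on dropping control replicate 3 or OBS20 replicate 1 or 2, and to 2 on dropping OBS20 replicate 3.

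Carriers and hormone genes gave a few large single changes. The vitamin B12 carrier gene tcnbb stood at 144, 117 and 158 TPM in control and 687, 601 and 745 TPM in OBS20. The lowest OBS20 value was 3.8-fold the highest control, a rise of 2.27 ± 0.14 (adjusted p = 3.6e-05). In the vitamin B12 group of 14, tcnbb was the 1 gene called, against 0.772% of all features called higher. The immunophilin fkbp5, which responds to glucocorticoids, had 214, 202 and 189 TPM in control and 121, 122 and 122 TPM in OBS20. The OBS20 values were closer to each other than the controls were, and the change was -0.72 ± 0.11 (adjusted p = 0.0072). The hormone precursor pomca rose from 1.32, 0.57 and 1.02 TPM to 4.8, 5.89 and 4.49 TPM (1.63 ± 0.33), a call lost without any 1 of the 6 libraries. Of 12 thyroid genes, ttr and the deiodinase dio3b fell and 0 rose, against 0.935% of all features called lower. The fall of dio3b was 1.27 ± 0.22 on the log2 scale, a call lost without control replicate 3 or OBS20 replicate 1. All OBS20 libraries lay below all controls in 5 of the 12, against 9.81% of all features, and above them in 1, against 5.75%. In the fit without OBS20 replicate 3, 1 thyroid gene was called higher. The growth factor carrier igfbp1a rose by 0.47 ± 0.09, a call lost without control replicate 3 or 4 or OBS20 replicate 1 or 2. Of 28 retinoid genes, 1 rose and 2 fell, against 0.772% called higher and 0.935% called lower over all features. Among these rbp2a held its fall, while the call of bco1, lower (-0.52 ± 0.11), was kept only without OBS20 replicate 3. The call of rbp7a, higher (0.82 ± 0.17), was lost without any 1 of the 6 libraries.

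Immune and stress groups showed few or no calls. Over all features tested 1.71% were called, so a count of 0 in groups of this size does not set them apart. Among 32 inflammatory signalling genes 0 were called, with a median of -0.04. The cytokine il1b had 0.88, 1.55 and 0.6 TPM in control and 1.2, 1.37 and 1.55 TPM in OBS20, with overlapping groups (adjusted p = 0.87). Of 14 neutrophil genes 0 were called, and the granule enzyme mpx measured 3.29, 2.71 and 2.9 TPM in control and 4.8, 4.55 and 3.6 TPM in OBS20 (adjusted p = 0.42). Among 16 macrophage and microglia genes 1 fell and 0 rose, against 0.935% of all features called lower. This was mfap4, at 12.14, 12.07 and 10.81 TPM in control and 5.73, 8.12 and 5.87 TPM in OBS20. Its change was -0.76 ± 0.14 (adjusted p = 0.020), a call lost without control replicate 2, 3 or 4 or OBS20 replicate 1. Of 54 heat shock proteins and co-chaperones, 2 rose and 0 fell. The small heat shock protein hspb9 was at 27.5, 22.6 and 29.2 TPM in control and 74.1, 66.7 and 88.5 TPM in OBS20, a rise of 1.49 ± 0.18 (adjusted p = 0.0016). The inducible hsp70l had 6.73, 5.55 and 6.13 TPM in control and 12.5, 11 and 11.3 TPM in OBS20, a rise of 0.82 ± 0.13. The heat shock count was 3 without OBS20 replicate 3. No gene was called among 39 of the integrated stress and unfolded protein responses, 41 proteasome subunits, 23 p53 and apoptosis genes, 49 proliferation genes, 103 nuclear oxidative phosphorylation genes or 84 ribosomal protein genes. When OBS20 replicate 3 was left out, 2 p53 and apoptosis genes were called higher, and 1 inflammatory gene and 1 ribosomal protein gene lower. The stress regulator atf3 gave 5.77, 6.32 and 5.37 TPM in control and 9.8, 7.91 and 7.53 TPM in OBS20, groups that did not overlap but with an adjusted p of 0.33. Of the 41 proteasome subunits, 19 had OBS20 libraries above all controls and the median was 0.13, and of the 103 oxidative phosphorylation genes 29 did, with a median of 0.10, against 5.75% of all features. All OBS20 libraries lay below all controls in 0 proteasome subunits and 4 oxidative phosphorylation genes, against 9.81% of all features. Across all features, 3048 had an unadjusted p below 0.05, so a gene without a call is not shown to be unchanged.

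Neuronal, red cell and endothelial groups held no called gene, where 1.71% called over all features would be less than 1 gene in each. With OBS20 replicate 3 left out, 1 endothelial gene was called higher. The 44 neuronal genes had a median of -0.21, which was -0.02 without OBS20 replicate 3. The 13 globin and red cell genes and the 23 endothelial genes had medians of -0.23 and 0.04. Of 51 collagens 1 rose, and without OBS20 replicate 3 the count was 5.

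Other large changes were seen in single genes. The matrix gene scpp9, of the family of secreted calcium-binding phosphoproteins, was at 0.46, 2.8 and 0.42 TPM in control and 14.3, 15.3 and 22.1 TPM in OBS20, a rise of 3.17 ± 0.34 (adjusted p = 0.00085). Enamelin, enam, a related matrix gene, had 13.2, 13.6 and 9.9 TPM in control and 38.9, 45.9 and 38.04 TPM in OBS20, a rise of 1.67 ± 0.18. The collagen X gene col10a1a, made by mineralising skeletal cells and the 1 collagen that was called, measured 19.4, 21.4 and 16.6 TPM in control and 68.7, 81.8 and 57.2 TPM in OBS20, a rise of 1.80 ± 0.19. The lowest OBS20 value was 5.12-fold the highest control for scpp9, 2.81-fold for enam and 2.68-fold for col10a1a. The dehydrogenase gene dhrs13l1 rose from 46.8, 33.1 and 35.1 TPM to 131, 131 and 137 TPM (1.78 ± 0.14), and aifm4, of the apoptosis-inducing factor family, from 6.63, 6.35 and 6.37 TPM to 22.4, 22.1 and 22.3 TPM (1.64 ± 0.13).

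Among the genes that fell, plekhs1, encoding a protein with a pleckstrin homology domain, had 7.98, 6.62 and 6.37 TPM in control and 0.54, 0.72 and 0.38 TPM in OBS20. The lowest control value was 8.85-fold the highest OBS20 value, a change of -2.37 ± 0.18 (adjusted p = 9.3e-05). The cerebellin-family gene cbln18 was at 10.98, 12.6 and 10.6 TPM in control and 1.63, 2.2 and 1.04 TPM in OBS20 (-2.26 ± 0.21). The receptor gene mchr1b, for melanin-concentrating hormone, fell from 4.88, 3.1 and 8.91 TPM to 0.3, 0.46 and 0.28 TPM (-2.21 ± 0.29), with a wide spread among its controls. The gene afp4 had 459, 344 and 329.9 TPM in control and 93.5, 120.0 and 107 TPM in OBS20 (-1.80 ± 0.16), and melanotransferrin, meltf, an iron-binding surface protein, fell by 1.74 ± 0.21 on the log2 scale. The keratin gene krt18a.2, at 3.57, 6.42 and 4.47 TPM in control and 0.74, 0.91 and 0 TPM in OBS20, fell by 1.93 ± 0.28 on the log2 scale, and missed the threshold with a pseudocount of 0.1. All OBS20 values of plekhs1, mchr1b and krt18a.2 were below 1 TPM, so these genes passed the filter through control alone. The ratio given for plekhs1 rests on values near the floor.

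The higher dose of OBS was set against OBS20 gene by gene. In these fits 325 features were higher in OBS30 than in OBS20 (1.16% of those tested) and 143 lower (0.509%). The comparison shares the OBS20 libraries with the one against control. Without OBS20 replicate 3 the counts were 235 and 132, and without OBS20 replicate 1 or 2 they were 201 and 62 or 249 and 75. Leaving out OBS30 replicate 1, 3 or 4 gave 156, 99 or 135 higher and 75, 41 or 43 lower. For gstp1, OBS30 libraries had 2789.5, 2585 and 2629 TPM, and the difference from OBS20 was 0.45 (95% interval 0.30 to 0.59, adjusted p = 0.0087). Of the ferritins, fthl31 had 159, 161 and 174 TPM in OBS30, a difference of 1.27 (95% interval 0.96 to 1.59, adjusted p = 0.0021). The heat shock gene hsp70l stood at 45.9, 44.04 and 43.02 TPM, a difference of 1.85 (95% interval 1.56 to 2.13, adjusted p = 0.0003). Transferrin was lower at the higher dose, with tfa at 233, 203 and 207 TPM and a difference of -0.67 (95% interval -0.84 to -0.49, adjusted p = 0.0027). The desaturase gene fads2 was also lower, at 2.93, 2.88 and 2.09 TPM, a difference of -0.93 (95% interval -1.32 to -0.54, adjusted p = 0.026).

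Some genes did not differ between the doses beyond the error. For cyp2k18 the difference was -0.01 (95% interval -0.61 to 0.59, adjusted p = 1), with OBS30 at 34.02, 44 and 56.2 TPM. For cyp51 it was 0.09 (95% interval -0.26 to 0.44, adjusted p = 0.85). The gene foxq1b ran the other way, with 9.62, 9.15 and 9.13 TPM in OBS30, below OBS20, a difference of -0.57 (95% interval -0.82 to -0.31, adjusted p = 0.035). The differences of fads2 and foxq1b between doses passed the threshold without OBS20 replicate 3 but not without any 1 of the other 5 OBS20 and OBS30 libraries, and the other 4 called differences between doses given here held in all 6 repeats.

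OBS and PFOS were compared at the 1 dose they share, 20 mg/L. OBS carries an unsaturated perfluorinated chain linked through an ether oxygen to a benzene ring with the sulfonate, and in PFOS a saturated perfluorinated chain bears the sulfonate directly. Over the features tested, 1855 were higher in OBS20 than in PFOS20 (6.6%) and 1113 lower (3.96%), with p-values adjusted over all 28115. The PFOS20 libraries were themselves shifted. Relative to the control mean, their median gene stood at -0.27, -0.14 and -0.05 on the log2 scale in replicates 2, 3 and 4. The part of this shift in the counts was not tested. Without OBS20 replicate 3 the counts were 5298 higher and 1310 lower, or 3536 and 3032 after median-of-ratios scaling as well. Leaving out OBS20 replicate 1 or 2 gave 839 or 991 higher and 704 or 960 lower, and leaving out PFOS20 replicate 2, 3 or 4 gave 916, 814 or 2248 higher and 817, 569 or 846 lower. For the genes named here, calls in the comparison with PFOS20 were the same in these 6 repeats. Glutathione transferase gstp1 was at 752, 719 and 742 TPM in PFOS20, and OBS20 stood above it by 1.41 (95% interval 1.26 to 1.56, adjusted p = 6.2e-06). The P450 gene cyp2k18 was at 8.18, 9.54 and 11.2 TPM in PFOS20, a difference of 2.09 (95% interval 1.49 to 2.69, adjusted p = 0.0012). For foxq1b the PFOS20 libraries had 6.23, 6.54 and 7.39 TPM, a difference of 0.99 (95% interval 0.73 to 1.24, adjusted p = 0.00064). In the other direction, hsp70l was at 35.8, 27.5 and 37.9 TPM in PFOS20, a difference of -1.45 (95% interval -1.74 to -1.16, adjusted p = 0.00016).

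The compounds also differed in single genes of inflammation, stress, energy use and plasma proteins, in both directions. No gene group was compared between compounds. The cytokine il1b was at 36.4, 36.1 and 30.4 TPM in PFOS20, and OBS20 differed from it by -3.89 (95% interval -4.74 to -3.04, adjusted p = 0.00025). The stress gene atf3 had 33.1, 35.1 and 31.7 TPM in PFOS20, a difference of -1.87 (95% interval -2.26 to -1.48, adjusted p = 0.0002). The uncoupling gene ucp1 stood at 188, 215 and 168 TPM in PFOS20, against 56.4, 61.2 and 49.8 TPM in OBS20 and 151, 102 and 122 TPM in control. Its difference between compounds was -1.75 (95% interval -2.08 to -1.43, adjusted p = 0.00011). Similarly plekhs1 was at 13.01, 16.6 and 13.6 TPM in PFOS20, a difference of -3.31 (95% interval -3.70 to -2.92, adjusted p = 8e-06), and ttr at 48.8, 53.5 and 47.1 TPM, a difference of -1.14 (95% interval -1.43 to -0.85, adjusted p = 0.00058). Transferrin was lower in PFOS20 than in OBS20, with tfa at 203, 183 and 190.4 TPM, a difference of 0.82 (95% interval 0.65 to 1.00, adjusted p = 0.00024).

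Other genes gave no difference beyond the error at this dose. For cyp51 the difference between compounds was -0.21 (95% interval -0.56 to 0.14, adjusted p = 0.45). That of fads2 was 0.18 (95% interval -0.21 to 0.57, adjusted p = 0.58), that of gsr 0.06 (95% interval -0.16 to 0.29, adjusted p = 0.76) and that of ahsg2 0.20 (95% interval -0.20 to 0.60, adjusted p = 0.56). Such intervals still allow differences of up to their bounds.

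**Figure D5:**
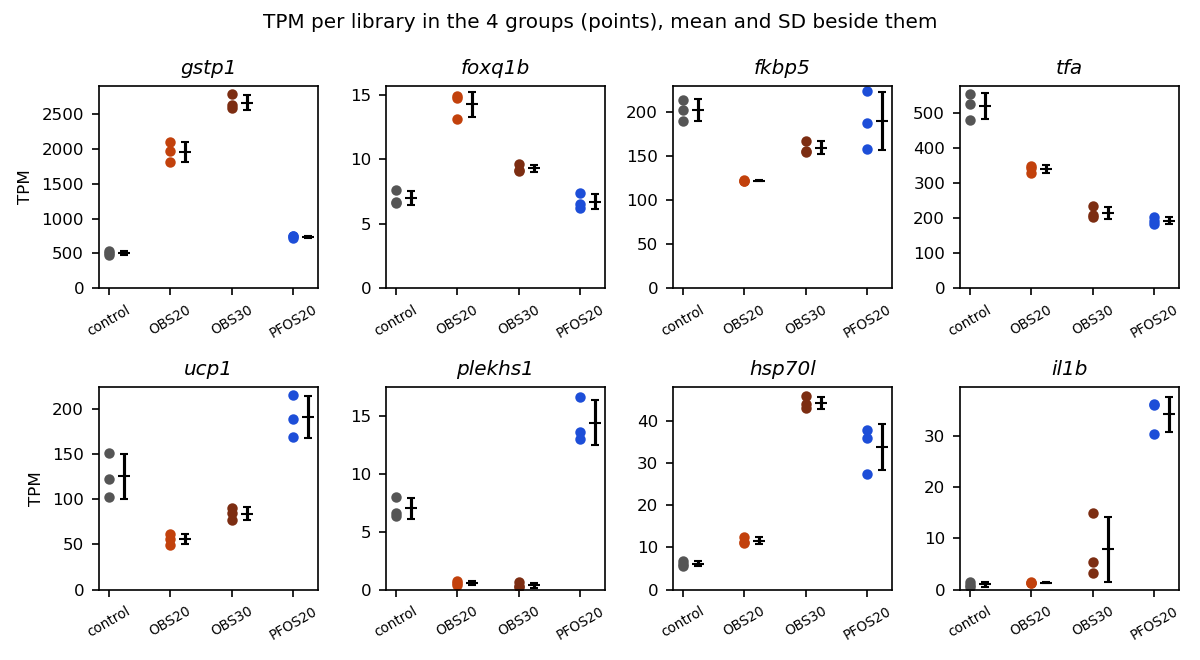
TPM of 8 genes in each library of control, OBS20, OBS30 and PFOS20 (points), with the mean and SD of the 3 libraries beside them and each y axis starting at 0. The plot shows gstp1 rising to 1810 to 2101 TPM in OBS20, fkbp5 near 122 TPM in all 3 OBS20 libraries, and il1b highest in PFOS20.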

How the data were processed

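Poly(A) RNA of whole larvae was sequenced as paired reads, per the labels' protocols. The values are TPM as deposited by the authors, scaled to the same total in each library, per the file headers and column sums. HISAT2, StringTie, RSEM and the GRCz11 assembly are named in the submitters' processing notes, and versions and settings are not given in the sources used here. No counts were used, so depth is unknown and precision comes from the spread between libraries.

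Features with at least 1 TPM in 3 of the 6 OBS20 and control libraries were tested on log2(TPM + 1) in limma 3.58.1 (R 4.3.3; lmFit, eBayes with a mean-variance trend, two-sided). All 12 libraries entered the fit with a group term, which left 8 residual degrees of freedom, and p-values were Benjamini-Hochberg adjusted over the 28115 features. The filter can pass a gene through OBS20 alone, which applied to 83 features with 0 control libraries at 1 TPM, and through control alone for 181 with 0 OBS20 libraries. Group counts are therefore of the members that passed. An exact permutation test of 3 against 3 could not give a p below 0.1. Counts of changed genes come from the deposited TPM without further normalisation.

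The members and gene groups were chosen with earlier results of these data known. Genes were named as the 15 highest and 15 lowest called changes with libraries that did not overlap, with a symbol and a mean of 5 TPM or more in the group with the higher mean. To these were added, for each gene group with at least 2 calls, as many as 4 genes called in each direction, and a fixed panel. Other called group members, and genes in the closing section, were named after their values were seen. Of several entries under 1 symbol, that with the most TPM on average was used. Strandedness is not given in the sources used here, so overlapping genes cannot be told apart, and 18 symbols turned into dates were not used. Whether replicate numbers pair the libraries could not be settled, and the block fit is among the alternatives. Alternatives were another pseudocount, filter, scaling or set of libraries, library weights and the removal of each library. Some genes of the groups are not reported here.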

Additional observations from a re-analysis of the deposited data

How the results depend on the processing

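Of the 110 named genes that were called, 0 changed sign under any alternative, 73 were called whichever of the 6 libraries was left out, and 101 without OBS20 replicate 3. Calls were lost for 51 of the 110 with the 6 libraries compared alone, 55 with replicate numbers as a block, 27 after median-of-ratios scaling and 25 with library weights. Counts in the order higher, lower, higher by at least 2-fold, lower by at least 2-fold and gene group members were 217, 263, 99, 158 and 145. Leaving out 1 library gave ranges of 109 to 340, 129 to 234, 69 to 131, 97 to 168 and 87 to 157. With the 6 libraries compared alone, which leave 4 residual degrees of freedom, they were 76, 78, 55, 68 and 54. With replicate numbers as a block, which pairs only replicates 2 and 3, they were 74, 82, 58, 75 and 55. Deviations of same-numbered libraries had correlations of 0.044 and 0.014, and those of other pairs ran from -0.049 to 0.033. So few libraries cannot settle whether the numbers pair them, and the main fit treated the numbers as names only. Quantile normalisation gave 384 genes called higher, or 57.6% of calls against 45.2%; the cause was not tested. Library weights gave 152 lower, 100 of them by at least 2-fold, and 92 group members. The estimation of these weights did not reach its convergence tolerance, and they were 0.23 for OBS20 replicate 1 and 0.16 for OBS20 replicate 3. A mean of at least 5 TPM, which tests fewer genes, gave 95 lower by at least 2-fold. Chosen after seeing the data, the 6 libraries without OBS20 replicate 3 gave 101, 93, 66, 69 and 60, and median-of-ratios scaling without it 238, 254, 95, 136 and 123. Settings for the other dose and compound were also chosen after seeing the data. Genes higher and lower in OBS20 than in PFOS20 (1855 and 1113) were 2953 and 2115 under quantile normalisation, 849 and 537 with the block, and 3536 and 3032 under median-of-ratios scaling without OBS20 replicate 3. Library weights gave 4402 higher and median-of-ratios scaling 1979 lower. Leaving out 1 library gave 814 to 5298 and 569 to 1310. Genes higher and lower in OBS30 than in OBS20 (325 and 143) were 106 and 30 with the block. Quantile normalisation gave 368 lower and library weights 95 lower. Leaving out 1 library gave 99 to 249 and 41 to 132. The causes were not tested.

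Sign changes were seen only in genes that were not called, and their cause was not tested. They were il1b with replicate numbers as a block (-0.12) and prss1 with library weights (-0.083). Without OBS20 replicate 3, fits of the 6 libraries gave -0.12 for prss1, 0.021 for cpt1aa and 0.11 for fasn, and median-of-ratios scaling gave -0.20 for prss1 and 0.037 for fasn. Leaving out 1 library at a time, prss1 ranged from -0.12 without OBS20 replicate 3 to 0.23, and was -0.029 without control replicate 4. Likewise ahr2 ranged from -0.12 without OBS20 replicate 2 to 0.37, cpt1aa from -0.52 to 0.021 without OBS20 replicate 3, and fasn from -0.74 to 0.11 without OBS20 replicate 3. Depth is unknown, so no counting error could be set beside low TPM values.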

Other observations

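These genes were chosen after their values were seen. Several genes of hydrogen sulfide oxidation were higher in OBS20. The first enzyme of that route, sqor, had 18.2, 18.1 and 16.01 TPM in control and 47.8, 49.6 and 56.5 TPM in OBS20, a rise of 1.503 ± 0.10 (adjusted p = 4.7e-05 in limma), and was called whichever of the 6 libraries was left out. Its partner ethe1 rose by 0.88 ± 0.15, a call lost without OBS20 replicate 1, and tstd1 by 1.26 ± 0.23, a call lost without control replicate 2, 3 or 4 or OBS20 replicate 1. The last enzymes of sulfur oxidation and transfer, suox (adjusted p = 0.84) and tst (adjusted p = 0.54), were not called. The glutathione group above did not hold the microsomal transferase mgst3b, which stood at 178, 161 and 160.4 TPM in control and 426, 417 and 579 TPM in OBS20 and rose by 1.49 ± 0.11. Further genes of the oxidative stress response, pir (1.31 ± 0.13) and the autophagy receptor sqstm1 (0.86 ± 0.12), rose.

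Some genes of purine breakdown were lower. Adenosine deaminase, ada, had 91.7, 70.3 and 75.3 TPM in control and 39.2, 51.6 and 36.3 TPM in OBS20 and fell by 0.89 ± 0.13 on the log2 scale. The phosphorylases pnp4a (-1.43 ± 0.18) and pnp4b (-1.23 ± 0.15) fell as well, and these 3 calls held in all 6 repeats. The gene pnp4a is also a marker of pigment cells, and the related pnp5a (adjusted p = 0.16) and pnp6 (adjusted p = 0.9) were not called. The guanine deaminase gda fell by 1.25 ± 0.22, a call lost without control replicate 2 or OBS20 replicate 1, and xdh, which makes urate, was not called (adjusted p = 0.4). Bile acid synthesis begins with cyp7a1, which had 25.4, 17.9 and 20.1 TPM in control and 8.48, 11.7 and 7 TPM in OBS20 and fell by 1.15 ± 0.19, a call lost without control replicate 2 or OBS20 replicate 1. Other enzymes of that route, cyp8b1 (adjusted p = 0.25), cyp27a1.4 (adjusted p = 0.96) and cyp7b1 (adjusted p = 0.88), were not called. The tryptophan-degrading enzyme ido1 measured 4.61, 5.19 and 4.13 TPM in control and 1.11, 0.41 and 0.18 TPM in OBS20, a fall of 1.89 ± 0.25 on the log2 scale.

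Annexin 1 paralogs moved in both directions in OBS20. Not called was anxa1a (adjusted p = 0.62), and anxa1d rose by 0.63 ± 0.12, a call kept only without OBS20 replicate 3. The gene anxa1c had 28.6, 37.5 and 36.7 TPM in control and 75.1, 73.1 and 82.01 TPM in OBS20, a rise of 1.15 ± 0.13, and anxa1b had 60.2, 56.9 and 56.1 TPM in control and 28.8, 29.6 and 25.98 TPM in OBS20, a fall of 1.01 ± 0.14 on the log2 scale. In OBS30 the mean was 67.8 TPM for anxa1b, against 57.8 TPM in control and 28.1 TPM in OBS20. For anxa1c it was 39.2 TPM, against 34.2 TPM in control and 76.7 TPM in OBS20. The OBS30 means of both genes thus lay nearer to control than to OBS20. Reads of these similar genes could be divided between them by the counting. Among skeletal matrix genes beside scpp9, enam and col10a1a, scpp5 rose by 1.38 ± 0.25, a call lost without control replicate 3 or 4, and the bone genes sp7 (adjusted p = 0.55) and spp1 (adjusted p = 0.92) were not called.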
